A study of Mus musculus with 67 samples.

Results

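Immediate early genes are transcribed within minutes of a signal, without the need for new protein. Kinases of the MAP kinase pathways activate factors already bound to their promoters, and their short-lived mRNAs encode transcription factors that act on later genes. FOS and JUN family proteins pair to form AP-1, and the preimplantation embryo makes its own mRNA from the 2-cell stage in the mouse. Described here are 10 genes of this kind, found by symbol among the 26414 genes measured: Fos, Fosb, Jun, Junb and Jund of the AP-1 family, Egr1, a zinc-finger factor, Atf3, a stress-induced factor of the ATF family, Ier2 and Ier3, induced early by growth factors and stress, and Myc, a regulator of growth.

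RNA of 67 libraries from C57BL/6 embryos was sequenced by SMART-seq2. The embryos came from fertilization in vitro of oocytes of females aged 6 weeks with sperm of males aged 10 weeks. The light group, 34 libraries, was exposed as 2-cell embryos to a lamp of 5000 lx, which lasted 6 h and was followed by dark culture, and the control group, 33 libraries, had no such exposure. Both groups were sampled at the 2-cell stage (7 control and 6 light libraries), the 4-cell stage (6 and 8), the 8-cell stage (4 and 8), as morulae (13 and 6) and as blastocysts (3 and 6).

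The study describes hand-picked single cells, while the labels number an embryo for each library, so a library may be 1 cell. Several libraries may share an embryo, and p-values then measure only the spread between libraries. The table gives, for each library, its reads over a scaling factor, called the value here. Reads outside 2 genes made of ribosomal RNA sequence, CT010467.1 and Gm42418, lay between 318177 and 2867034 per library, and 1 read was worth a value of 0.266 to 3.89. The ratio of Gm42418 to CT010467.1 was 3.00 ± 0.668 (SD, n = 7) in control and 1.65 ± 0.0697 (SD, n = 6) in light 2-cell libraries, and 3.22 ± 0.608 (SD, n = 13) and 1.55 ± 0.0653 (SD, n = 6) in morulae. At the 8-cell stage the ratio was 2.01 to 2.34 in the 4 control and 1.52 to 1.71 in the 8 light libraries, without overlap. In blastocysts it was 1.43 ± 0.0139 (SD, n = 3) and 1.43 ± 0.162 (SD, n = 6), and the control 4-cell libraries were split, with 4.55 and 4.35 in libraries 1 and 2 and 1.61 to 1.98 in the other 4. Its part in the results was not tested. Control 4-cell library 3 stood apart: its median correlation was 0.844 with the light and 0.788 with the other control libraries, and the calls and list counts that use it were also made without it, the list counts being added after seeing the data. The median correlation was also higher with the light libraries, by smaller margins, in control 4-cell libraries 2, 4 and 6, in 11 of 13 control morulae and in 1 of 3 control blastocysts.

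Defining markers were checked against the stage labels. Summed over 5 genes of the transient 2-cell program, the median was 327 in control and 271 in light 2-cell libraries, against 2.94 and 5.03 at the 4-cell stage, where 1 light library reached 159.9. The 4 control 8-cell libraries went against this order, with a median of 81.4 (25.0 to 163.4), beside 2.24 (0.532 to 53.0) in the 8 light 8-cell libraries. Of 8 cumulus cell markers 5 were in the table, and their sum reached 59.6 in a light 2-cell library and 6.90 at most in the control ones.

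Promoter sequence from RefSeq (GRCm38.p6) was taken for 7 of the 10 genes, and Egr1, Ier2 and Myc were not searched. Shown are the 3 of these 7 that were called lower from the 2-cell to the 4-cell stage in control embryos. Of the 3, Ier3 was not called in light embryos. Egr1 was also called lower in control embryos, and its promoter was not examined. Each run gives the 250 bases before the start of the gene on the gene's strand, chr7:19310046-19310295 (minus strand) for Fosb, chr8:84978749-84978998 (minus) for Junb and chr17:35821463-35821712 (plus) for Ier3. Capitals mark TGACG, the core letters of the site bound by CREB and ATF factors.
Fosb: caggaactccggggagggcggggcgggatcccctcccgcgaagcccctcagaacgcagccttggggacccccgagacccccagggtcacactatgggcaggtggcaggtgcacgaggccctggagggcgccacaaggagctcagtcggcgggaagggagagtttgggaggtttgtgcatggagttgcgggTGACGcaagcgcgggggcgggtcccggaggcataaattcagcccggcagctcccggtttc
Junb: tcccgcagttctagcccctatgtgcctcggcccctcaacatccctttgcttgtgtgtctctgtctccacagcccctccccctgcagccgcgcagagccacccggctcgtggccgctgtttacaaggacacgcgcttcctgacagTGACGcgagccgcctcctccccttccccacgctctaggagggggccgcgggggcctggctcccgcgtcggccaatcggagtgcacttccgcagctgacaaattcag
Ier3: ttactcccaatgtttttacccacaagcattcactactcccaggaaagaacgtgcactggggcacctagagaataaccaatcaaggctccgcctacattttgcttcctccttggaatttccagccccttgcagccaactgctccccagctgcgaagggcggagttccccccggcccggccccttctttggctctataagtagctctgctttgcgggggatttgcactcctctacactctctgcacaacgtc

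Motifs were searched on both strands, and the one in capitals was picked after the matches were seen. TGACG stood 60 to 56 bases before the start of Fosb and 106 to 102 before that of Junb, at 2 places in Fos and at 1 in Atf3, and 17.8% of 32841 promoters of this length held it. TATAAA was in Fos alone among these genes and in 12.4% of all promoters. The full cAMP response element TGACGTCA (1.55% of all promoters, its letters include TGACG), the AP-1 site TGACTCA (4.46%) and the CArG box of serum response factor (1.47%) had no match in the 7 windows, which says only that these letters are not in them.

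Most of these mRNAs were sparse. Jund had at least 3 reads in all 67 libraries, Myc in 50, Ier2 in 44, Jun in 34, Junb in 32, Ier3 in 18, Egr1 in 16, Fosb in 15, Fos in 9 and Atf3 in 3. The median number of the 10 genes with at least 3 reads was 7 in control and 6 in light 2-cell libraries, and 2.5 and 3 at the 4-cell stage. Where a library holds more than 1 cell, fewer cells of a type and less RNA per cell cannot be told apart.

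**Figure D1:**
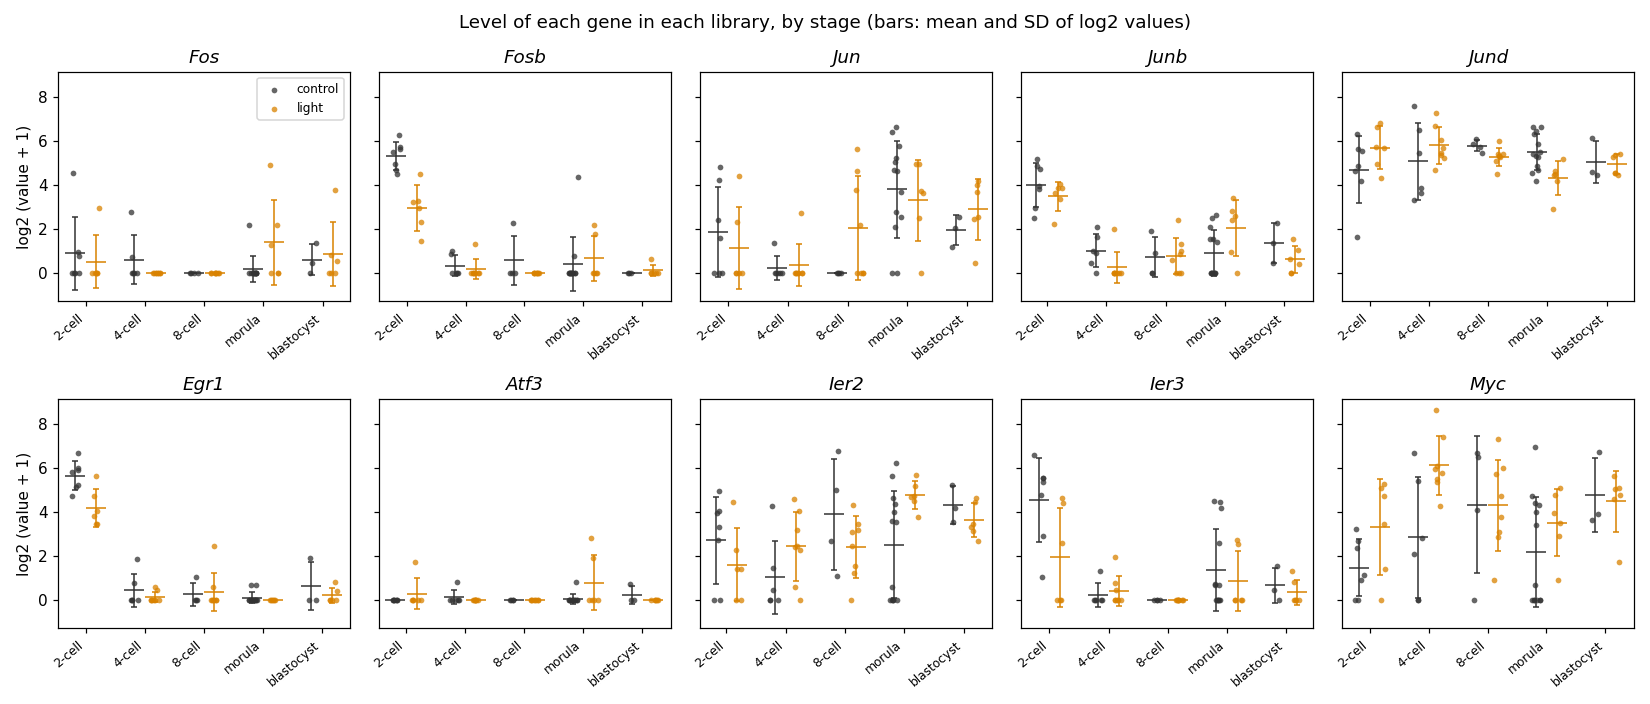
Level of each gene in each library as log2 of the value plus 1 (y axis) by stage (x axis), control in grey and light in orange; horizontal lines are means and bars the SD of the log2 values. Fosb and Egr1 were high at the 2-cell stage and near 0 in most libraries after it, though Fosb reached 19.6 in 1 control morula library. Jund was present at every stage, and Fos and Atf3 were at 0 in most libraries.

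Per kb of exon, the order of the mean levels at the 2-cell stage in control was Ier3 (33.3), Jund (20.7), Egr1 (12.0), Junb (7.87), Ier2 (7.02), Fosb (6.75), Jun (2.28), Fos (1.44) and Myc (1.05), with Atf3 at 0. Junb, Ier2 and Fosb were close to each other in this order, with SDs of the values that are a large share of their means. In the 9 other groups the highest level per kb was that of Jund in 7, of Myc in light 4-cell embryos (39.4 against 38.4 for Jund, turning to 23.8 against 30.7 without light library 7) and of Ier2 in light morulae (18.7 against 12.5).

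At the 2-cell stage Fosb was the gene of the 10 called between light and control by limma. FOSB is a partner of JUN proteins in AP-1. In the 7 control libraries the value of Fosb lay between 21.8 and 75.2 with a median of 43.8, and in the 6 light libraries between 1.68 and 21.7 with a median of 7.51. Every control library was above every light library, the closest pair being 21.8 and 21.7, so the groups touched without overlap. Scaled to the reads outside the 2 ribosomal genes they overlapped, with the lowest control library at 13.1 CPM and the highest light one at 15.6 CPM. In light libraries 14 and 16 the value stood for 1 read. The means were 42.2 ± 18.7 (SD, n = 7) and 8.46 ± 7.01 (SD, n = 6), and on the log2(value + 1) scale the difference was -2.38 (SE 0.62, adjusted p = 0.0120, limma with Benjamini-Hochberg adjustment). A call needed an adjusted p under 0.05 with a change of 2-fold or more, and of the 8 genes tested 1 was called lower and 0 higher. Over all 18532 genes tested 4.96% were called lower and 10.5% in either direction, so this count is near the background. Groups did not overlap in 4.15% of all genes.

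The cells of the 2 groups differed in other ways at this stage. Summed over 6 oocyte mRNAs, which are stored by the mother and then destroyed, the value was 2410 to 5320 in control and 714 to 2153 in light libraries. Of the 6, 3 were called lower, against 4.96% of all genes tested, led by Bmp15 (-2.19) and Oosp1 (-1.62). All 6 oocyte markers were above 0 in both groups. Their part in the lower Fosb value was not tested.

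Egr1 and Ier3 showed lower means in light 2-cell embryos but did not pass the test, though other settings called them. EGR1 is induced through serum response factor, and IER3 acts on cell survival. Egr1 lay between 25.2 and 103.1 (median 56.2) in control and between 9.91 and 48.4 (median 14.3) in light libraries, and the groups overlapped. The difference was -1.46 (SE 0.53, adjusted p = 0.0698, limma), and without light library 15, the highest of its group, it was -1.75 with an adjusted p of 0.0300. Egr1 was also called with a mean above 5, by DESeq2 (adjusted p = 0.0128) and in 1 limma fit over all libraries (0.00860). Ier3 lay between 1.04 and 96.8 (median 39.99) in control and between 0 and 23.8 (median 2.55) in light libraries. Ier3 differed by -2.61 (SE 0.95, adjusted p = 0.0740, limma), and the call was made without control library 11 (adjusted p = 0.0217), light library 10 (0.0433) or light library 14 (0.0489), and in 1 fit over all libraries (0.00916).

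The remaining genes at the 2-cell stage were not called by limma. Junb lay between 4.60 and 34.8 in control and 3.72 and 15.5 in light libraries, with a difference of -0.50 (SE 0.68). Jund, which is made steadily in many cells, was 2.07 to 78.3 in control and 18.6 to 112.7 in light libraries, a difference of 1.01 (SE 0.62). Myc was 0 to 8.33 in control and 0 to 37.1 in light libraries, with a difference of 1.85 (SE 0.92, adjusted p = 0.1996, limma), and DESeq2 called it (adjusted p = 0.0341). Jun had 3 or more reads in 4 of 7 control and 1 of 6 light libraries, and Ier2 in 5 and 1. The groups overlapped for all 5 of these genes. Fos and Atf3 did not pass the filter of a value above 1 in 3 libraries. Fos had a value of 22.2 in control library 12 and 6.70 in light library 14 and at most 0.919 in the others.

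**Figure D2:**
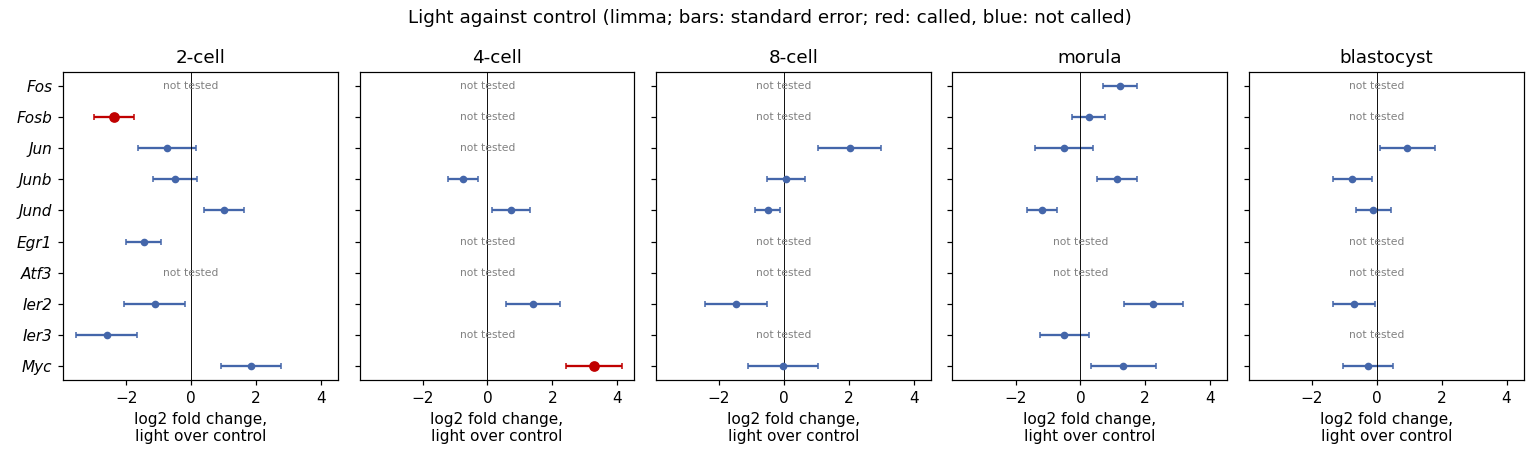
Difference between light and control on the log2(value + 1) scale (x axis) for each gene (y axis) at each stage; points are limma estimates, bars the standard error, red marks called genes and blue genes not called. Fosb at the 2-cell stage (-2.38) and Myc at the 4-cell stage (3.29) are the 2 called values.

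Genes that act before the immediate early genes were counted as a list of 31 kinases and factors, all tested. At the 2-cell stage 6 were called lower, against 4.96% of all genes, and 1 higher, against 5.53%, with a median difference of -0.11 against 0.00025 over all genes. The 2 with the smallest p were Mapk8, the kinase JNK1 that phosphorylates JUN, at 762 ± 194 (SD, n = 7) in control and 262 ± 47.5 (SD, n = 6) in light, and Crebbp, a coactivator of CREB, at 1472 ± 346 and 612 ± 34.4. Their differences were -1.52 (SE 0.25) and -1.24 (SE 0.21), with adjusted p-values of 0.000238 and 0.000316 by limma.

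**Figure D3:**
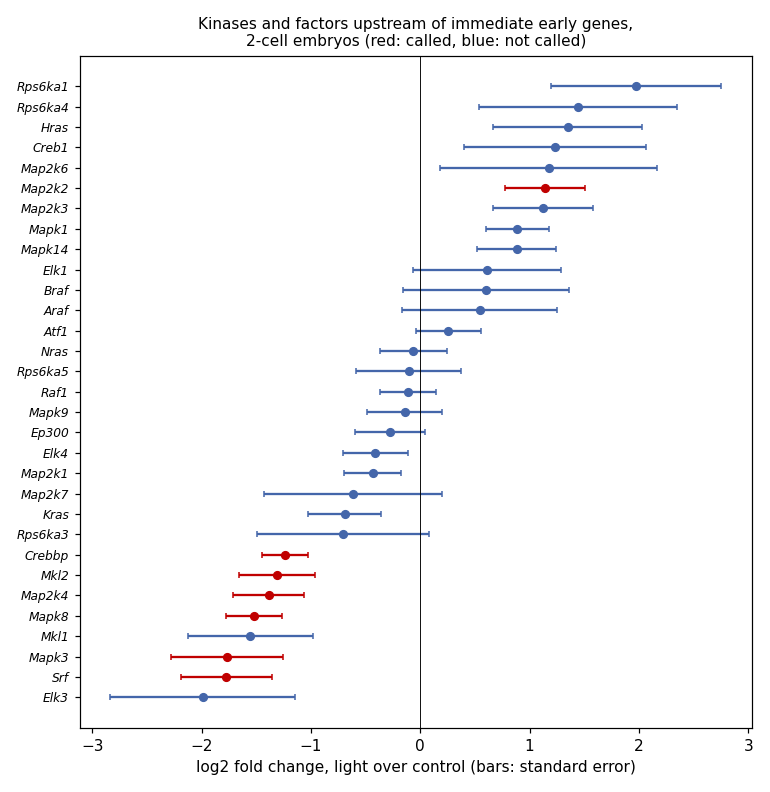
Difference between light and control 2-cell embryos on the log2(value + 1) scale (x axis) for 31 kinases and factors that act on immediate early genes (y axis); points are limma estimates, bars the standard error, red marks called genes. The called genes are 6 lower ones, led by Srf at -1.77, and Map2k2 at 1.14.

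Related lists at the 2-cell stage are counted here beside the shares over all genes tested, 5.53% called higher and 4.96% lower. The counts of the other AP-1 and other immediate early lists are near these shares. Of 14 other AP-1 family genes 11 were tested and 1, Atf7, was called lower (-2.71). Of 37 other immediate early genes 33 were tested, of which 2 were called higher and 1 lower; the 2 with the smallest p were Bhlhe40, a clock-related repressor (-3.72), and Btg1, an inhibitor of proliferation (2.52). Of 9 genes of the MYC network limma called 0, with an unadjusted p under 0.05 for 1. Of 5 inducible heat shock genes Hspb1 was higher (2.81) and Dnajb1 lower (-1.52).

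At the 4-cell stage Myc was the gene of the 10 that was called, and the call depended on the libraries and the settings used. In the 6 control libraries Myc had a lowest value of 0, a median of 4.71 and a highest of 102.6, and in the 8 light libraries 18.4, 57.7 and 403.8. The control libraries 1 and 3, at 41.8 and 102.6, lay inside the range of the light ones, while the other 4 were at 6.15 or less and below every light library. The difference was 3.29 (SE 0.85, adjusted p = 0.0468, limma), 1 of 4 genes tested being called higher against 1.12% of 15010 genes (1.45% in either direction). Without control library 3, which stood apart, it was 4.06 with an adjusted p of 0.00558. It was lost without any of 12 of the 14 libraries, with adjusted p-values of 0.0525 to 0.0963, and kept without control library 1 or 3. edgeR gave a difference of 1.95 and an adjusted p of 0.296, and DESeq2 0.340.

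Other members at the 4-cell stage did not pass. Jund lay between 8.80 and 193.4 in control and 24.3 and 154.2 in light, Ier2 between 0 and 18.1 and between 0 and 22.8, and Junb between 0 and 3.28 and between 0 and 3.01. Egr1, Fosb, Jun and Ier3 had at most 1 library with 3 reads in either group and, with Fos and Atf3, were not tested. Among 28 tested genes of the other immediate early list 2 were called higher, Klf2 (2.05) and Btg1 (3.18), against 1.12% of all genes. Of 29 upstream genes limma called 0, against 1.45% in either direction, with an unadjusted p under 0.05 for 7. Without control library 3, Klf2 (2.29) and Btg1 (3.43) were again called, and of the upstream genes 2 were called higher and 1 lower. The shares over all genes rose too, to 2.61% higher and 2.59% lower from 1.12% and 0.333%.

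From the 8-cell stage on no gene of the 10 was called between light and control by limma, with 5 tested at the 8-cell stage, 8 in morulae and 5 in blastocysts, and the unadjusted p was under 0.05 only for 3 of them, all in morulae; edgeR and DESeq2 also called 0 at each of these stages. The background share called was 9.21%, 1.18% and 5.34%. At the 8-cell stage Jun, the core partner of AP-1, was at 0 in all 4 control libraries and between 0 and 49.1 (median 1.74) in the 8 light libraries, 4 of which had reads. The light mean of 11.1 (SD 17.6, n = 8) was 4.87 times a floor of 3 reads per control library. Without light library 6, which held 49.1, it was 2.49 times that floor. These ratios describe the libraries at hand and set no lower bound for the groups. The light median lay under that floor of 2.28. Jun passed the filter only through the light libraries, where it was high, and the test gave an adjusted p of 0.199 (limma). Ier2 was 1.16, 5.32, 30.9 and 110.1 in the control libraries and 0 to 18.9 in the light ones, which overlapped. The groups also differed in stage markers here. Of the genes tested, 2 of 5 trophectoderm, 2 of 5 inner cell mass and 2 of 3 primitive endoderm genes were called higher in light and 0 lower, against 5.91% of all genes called higher. Of 3 transient 2-cell genes 1 was called lower, Zfp352 (-5.19), against 3.3%. The part of these differences in the Jun and Ier2 values was not tested.

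In morulae Jund, Ier2 and Fos had the smallest p. Jund lay between 17.0 and 98.1 (median 41.1) in 13 control and between 6.53 and 35.1 (median 21.2) in 6 light libraries, a difference of -1.20 (SE 0.46, adjusted p = 0.192, limma). Ier2 lay between 0 and 74.3 in control and 12.6 and 50.6 in light, a difference of 2.25 (SE 0.92, adjusted p = 0.215, limma). Fos had 3 or more reads in 1 of 13 control and 3 of 6 light libraries, reaching 28.9, with a difference of 1.22 (adjusted p = 0.242, limma). The groups overlapped in all of these.

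In blastocysts Myc was 11.6, 14.2 and 103.7 in the control libraries and 2.33 to 48.5 in the light ones. Jund was 20.5, 22.6 and 69.3 in control and 21.0 to 41.9 in light. Neither was separated, with differences of -0.28 (SE 0.77) and -0.10 (SE 0.53), while the median over all genes was -0.64. Both differences turned sign in 4 of 8 alternatives, up to 0.45 for Myc and 0.66 for Jund, and the median over all genes was -0.10 with median ratio scaling and -0.04 when scaled by the reads outside the ribosomal genes. At this stage 5 of 6 inner cell mass genes were called lower in light, led by Nanog (-4.48) and Tdgf1 (-4.21), against 4.98% of all genes. With median ratio scaling 1 of the 6 was called, against 1.19%, and by reads outside the ribosomal genes also 1, against 0.865%, 2 fits of the list added after seeing the data. The median difference of the 6 stayed at -2.89 and -3.22 in these fits, with an unadjusted p under 0.05 (limma) for 5 in each. Of 7 trophectoderm genes 1 and then 2 were called higher in these fits, against 0.997% and 1.03%, and 0 lower. With the deposited scaling 0 of the 7 were called. All genes called numbered 635 lower and 45 higher with the deposited scaling and 152 and 127 with the median ratio. Whether the difference in these markers bears on the values above was not tested.

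Stages were then compared within each group. A gene near 0 at 1 of the 2 stages passed the filter only through the other, so its call is given as a description of the values. In control embryos Fosb, Egr1, Junb and Ier3 fell, 4 of 8 tested against 32.3% of 17725 genes called lower (46.1% in either direction), so with 8 genes the count is read as no result about them. These tests use the same control 2-cell libraries as the comparison with light. Fosb fell from 21.8 to 75.2 at the 2-cell stage to 0 to 0.978, Egr1 from 25.2 to 103.1 to 0 to 2.62, Junb from 4.60 to 34.8 to 0 to 3.28, and Ier3 from 1.04 to 96.8 to 0 to 1.52. For Fosb, Egr1 and Junb every 2-cell library was above every 4-cell library, which held for 20.4% of all genes, and for Ier3 the groups overlapped. On the log2(value + 1) scale the differences were -5.01 (SE 0.60), -5.21 (SE 0.62), -2.98 (SE 0.66) and -4.32 (SE 0.81). The adjusted p-values by limma were 7.85e-07, 6.55e-07, 0.000927 and 0.000158. All 4 stayed called with each library left out, control 4-cell library 3 among them. All 4 passed the filter only through the 2-cell libraries, where they were high, so neither the calls nor these fits are support for the fall.

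The 4-cell counts behind these folds were small. Fosb had 363 reads in the control 2-cell and 2 in the 4-cell libraries, a ratio of pooled rates of 184 (95% exact interval 50.7 to 1528, counting error only), and 319 to 327 without library 4 or 6, which held 1 read each. Egr1 had 438 and 5 reads, 4 of the 5 in control 4-cell library 2, and the ratio of 89.0 (37.8 to 275) became 370 without it. Ier3 had 358 and 4 reads, all 4 in control 4-cell library 3, so without the library that stood apart the gene was at 0 and no ratio is given. Junb had 143 and 11, a ratio of 13.2 (7.16 to 27.1), and 20.1 without library 2. Other libraries left out lowered the ratios. Without control 4-cell library 3 they were 130.7 for Fosb, 63.1 for Egr1 and 10.3 for Junb.

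In light embryos Fosb, Egr1 and Junb also fell and Myc rose, 3 of 8 tested falling against 29.0% of 17258 genes and 1 rising against 7.43% (36.5% in either direction). The differences were -2.77 (SE 0.57) for Fosb, -4.06 (SE 0.60) for Egr1 and -3.24 (SE 0.59) for Junb, each without overlap, as for 13.0% of all genes, and 2.80 (SE 0.71) for Myc. The adjusted p-values by limma were 0.000286, 4.60e-06, 7.64e-05 and 0.00230. Fosb, Egr1 and Junb passed the filter only through the 2-cell libraries, where they were high, so their calls are no support for the fall. Ier3, at -1.54 with an adjusted p of 0.0786, did not pass. Myc rose from a median of 17.8 to 57.7, with overlapping groups. In control the mean of Myc went from 2.86 to 25.6. That difference of 1.37 (SE 0.99, adjusted p = 0.263, limma) was not called, though 1 of 7 alternatives called it. The rise of Myc was not shown to differ between the groups, with an interaction term of 1.43 (SE 1.31, adjusted p = 0.599, limma). The control and the light series share no libraries, but the change in Fosb between the groups was not shown to differ: the interaction term was 2.23 (SE 0.82, adjusted p = 0.122, limma), while 1 fit over all libraries called it (adjusted p = 0.0326).

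At later stages 2 further differences were called. Jun was at 0 in the 4 control 8-cell libraries and between 0 and 97.9 (median 23.5) in the 13 control morulae. Of these morulae 11 had 3 or more reads. The mean of 28.9 was 12.7 times a floor of 3 reads per 8-cell library, which describes these libraries and sets no lower bound. Jun passed the filter only through the morulae, where it was high, so its call (adjusted p = 0.0143, limma) is no support for the change; it was 1 of 6 tested against 6.84% of 14966 genes called higher (14.3% in either direction). Ier2 rose in light from a range of 0 to 18.9 at the 8-cell stage to 12.6 to 50.6 in morulae, by 2.35 (SE 0.63, adjusted p = 0.0126, limma), 1 of 6 tested against 4.61% of 14414 genes (11.8% in either direction). The call of Ier2 was kept in all 14 fits with a library left out. That of Jun was kept in all 17, which is no support either, since the filter was again passed through the morulae. None of the genes was called between the 4-cell and 8-cell stages or between morula and blastocyst, in either group, by limma, where 6.31% (control) and 10.6% (light) of all genes and then 11.9% and 20.7% were called; the unadjusted p was under 0.05 for 1 and 2 genes in the first step and 0 and 2 in the second. edgeR called 0 in these 4 comparisons and DESeq2 called 1 in the control 4-cell to 8-cell step and 1 in the light step to the blastocyst.

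Over the 4 neighbouring pairs of stages, 31 interaction terms of light and stage were tested among these genes. None was called by limma within the stages compared or by edgeR, 1 by DESeq2 (Jun, 8-cell stage to morula) and 1 in the limma fit over all libraries (Fosb, 2-cell to 4-cell stage), and 7 had an unadjusted p under 0.05, of which 4 were those of Ier2, whose sign changed from one pair of stages to the next (2.53, -2.90, 3.73 and -2.95), and neighbouring terms share the libraries of 1 stage. The shares called over all genes were 3.07%, 3.80%, 2.62% and 1.57%.

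The wider lists were counted over the same step. From the 2-cell to the 4-cell stage in control 7 of 11 other AP-1 genes, 17 of 32 other immediate early genes and 17 of 31 upstream genes were called lower, against 32.3% of all genes, with 0, 2 and 0 higher. Without control 4-cell library 3 they were 7, 16 and 17, against 30.2%. In light embryos 4 of 7, 16 of 33 and 17 of 31 were lower, against 29.0%, with 0, 1 and 0 higher. The median difference of the other immediate early genes was -2.15 in control and -1.61 in light, beside -0.72 and -0.56 over all genes tested.

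Likeness of pattern was taken as Pearson's r over the 10 group means of log2(value + 1) among 11126 genes, as a description. The genes most like Fosb were Zfp30 (0.995) and Grin2b (0.994), and those most like Egr1 were Tbx4 (0.997) and Zscan4e (0.996). Junb was most like Klhl32 (0.974) and Pde4dip (0.970). For the genes with later expression r was lower, 0.915 for Phlda1 and 0.909 for Slc19a2 with Jun, 0.823 for Zfp428 and 0.805 for Tmem160 with Jund, 0.886 for Sema4g and 0.848 for Rad52 with Ier2, and 0.920 for Mtap and 0.883 for Kpna4 with Myc. Over the 67 libraries, which share stages and depth, Fosb and Egr1 had an r of 0.868 with each other, and 0.485 within the groups of the 13 2-cell libraries.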

How the data were processed

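The authors aligned reads with HISAT2 to mm9 and counted them with HTSeq 0.9.1, per the labels, and the paper describes RPKM. The deposited values are a signal, reads divided by a size factor: at least 99.97% per library were whole reads within a tolerance of 0.01, and 11 genes held values that were not. Levels per kb used exon lengths of GENCODE M21 (GRCm38). Ribosomal genes took 54.0% to 89.3% of reads. The closest libraries of any group differed by 7.39 or more in chi-square per degree of freedom, so none was counted as a duplicate.

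limma 3.58.1 (eBayes with trend) in R 4.3.3 was run on log2(value + 1) for genes above a value of 1 in 3 or more libraries compared, without covariates, on the whole table. Calls needed a 2-fold change and a Benjamini-Hochberg adjusted p under 0.05. Alternatives included edgeR 4.0.16 and DESeq2 1.42.0 on recovered reads. The limma step was tested on simulated data at 2 preset dispersions and at dispersions estimated from these libraries; recovery fell as the dispersion rose, so a gene without a call may still differ. All 10 genes are named, of other lists up to 2 called genes with the smallest p per stage (all called for the upstream plot), and the 2 genes with the highest r, which for Ier3 are not reported here. Members and lists were chosen with earlier results of these data known. Figures used matplotlib 3.10.9.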

Additional observations from a re-analysis of the deposited data

Results flagged for a closer look

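In groups of 4 to 10 libraries the highest or lowest value was compared with the rest by Dixon's ratio on the log2(value + 1) scale. Of 67 groups with any spread, 18 held a library that stood apart, where chance gives about 1 in 20; most are groups in which 1 library had reads and the others had none or few, which this ratio marks at any level.

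Fos stood apart in control 2-cell library 12 (22.2, the next 0.919), light 2-cell library 14 (6.70, the others at 0), control 4-cell library 4 (5.87, the next 0.655) and light blastocyst library 15 (12.6, the next 0.736). Fosb did so in light 4-cell library 13 (1.47), control 8-cell library 2 (3.73) and light blastocyst library 15 (0.526), the others being at 0. Jun stood apart in control 4-cell library 3 (1.52) and light 4-cell library 6 (5.59), and Junb in light 4-cell library 6 (3.01), again with the others at 0. Egr1 did so in control 8-cell library 2 (1.06) and light 8-cell library 7 (4.47, the next 0.498), and Atf3 in light 2-cell library 9 (2.27) and control 4-cell library 3 (0.760). Ier2 stood apart in control 4-cell library 6 (18.1, the next 1.70), and Ier3 in control 4-cell library 3 (1.52) and light 4-cell library 14 (2.83, the next 0.734). Myc in light blastocyst library 13 was low (2.33, the next 23.0). Control 4-cell library 3 is the library that correlated best with the light group.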

How the results depend on the processing

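The number of these genes called was within 1.5 times the main one in 120 of 145 alternatives across comparisons. For light against control at the 2-cell stage (main 1) it was 2 with a mean above 5, 3 by DESeq2 and in 1 fit over all libraries, and 0 with the replicate block. At the 4-cell stage (main 1) it was 0 with a pseudocount of 0.1, no filter, median ratio scaling, edgeR, DESeq2, 1 fit and the replicate block. From the 2-cell to the 4-cell stage it was 2 by edgeR in control (main 4), and in light (main 4) 2 with a mean above 5 and by edgeR and 0 with the replicate block. By edgeR and with a mean above 5 the missing genes, Junb and Ier3 in control and Fosb and Junb in light, did not pass the filter and were not tested. From the 4-cell to the 8-cell stage (main 0) it was 1 by DESeq2 in control and 1 with the replicate block in light. From the 8-cell stage to the morula (main 1) it was 0 with the replicate block in control, and in light 2 by DESeq2, 0 in 1 fit and 0 with the replicate block. From morula to blastocyst in light (main 0) it was 1 with median ratio scaling and by DESeq2. For the interactions (main 0) it was 1 in 1 fit from the 2-cell to the 4-cell stage and 1 by DESeq2 from the 8-cell stage to the morula. The causes of the other changes were not tested.

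With each library left out, the count ranged from 1 to 2 for light against control at the 2-cell stage, 0 to 1 at the 4-cell stage, 4 to 5 for the 2-cell to 4-cell step in either group, and 0 to 1 for the light steps from the 4-cell to the 8-cell stage and from morula to blastocyst. The Fosb call at the 2-cell stage held in all 13 such fits and in 8 of 9 alternatives, its adjusted p being 0.122 with the replicate block, which called 0 of all 18532 genes there. The deviations of libraries with the same number had a correlation of at most 0.0695. In the control 4-cell to 8-cell step 3 of 4 shared numbers correlated best with their own. Whether such libraries share an embryo or a batch cannot be told from these low values. The block could not be fitted at the 8-cell stage, in blastocysts, for the control 2-cell to 4-cell step or the light step to the blastocyst. It was not planned for interactions. Values under alternatives were written for the genes called under some setting; 85 tests were called under none, and in 18 of them the sign turned. Depth limits the sparse genes: 3 reads were worth a value of 0.797 to 11.7, depending on the library.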
